A study of Mus musculus with 54 samples.

Results

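The mitochondrial ribosome, or mitoribosome, translates the few proteins encoded by mitochondrial DNA, all of them subunits of the respiratory chain and of ATP synthase. Its RNA components come from mitochondrial DNA, while all of its proteins are encoded in the nucleus, made in the cytosol and imported. The large subunit carries the peptidyl transferase centre and the exit tunnel, and the small subunit binds the messenger RNA and decodes it. The genes followed here are those whose symbol begins with Mrpl (large subunit) or Mrps (small subunit) followed by a number and at most 1 letter, measured by probe sets annotated to 1 gene symbol. They were 74 genes on 86 probe sets, of 18759 genes on 21086 such probe sets in all. The large subunit supplied 46 genes and the small subunit 28, and 12 genes had 2 probe sets.

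Symbols do not always follow structure. Mrps30 and Mrps18a are named as small subunit proteins but sit in the large subunit of mammalian mitoribosomes, and Mrps36 has been described as a component of the 2-oxoglutarate dehydrogenase complex. Mrps18a, Mrps18b and Mrps18c are related proteins with the same bacterial counterpart. A further 9 probe sets name a mitoribosomal gene together with another gene and were not counted as members, so Mrpl24, Mrpl43, Mrpl53 and Mrps6 were not analysed here.

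The arrays came from C57BL6 mice labelled as 14 weeks old, either swimming or control. Swimming mice began at 11 to 12 weeks, were acclimated over 9 days by daily sessions lengthened in steps of 10 min, and then swam for 3 weeks in 2 sessions per day of 90 min, with 4 hours of rest in between. Total RNA was hybridised from visceral white adipose tissue, subcutaneous white adipose tissue, liver, kidney, spleen, brain and skeletal muscle, with 4 swim and 4 control arrays per tissue except muscle (3 swim arrays) and liver (3 control arrays), 54 arrays in all. The labels give no treatment of the control mice, and do not say which tissues came from the same mouse or whether the arrays of a group came from separate mice, so p-values measure the spread between arrays.

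The median deposited signal per array ranged from 45.92 to 118.65, and the number of arrays limits the precision. Markers of the labelled tissue were high throughout, but some libraries also carried markers of others. In subcutaneous fat, B cell markers averaged 9.17 and 10.48 (log2 signal over 4 markers) on swim arrays 22 and 23 and 11.30 to 11.33 on control arrays 18, 19 and 20, against 4.83 to 5.60 on the other arrays of that tissue. Kidney tubule markers averaged 12.19 on subcutaneous swim array 22, and muscle fibre markers 11.40 on subcutaneous swim array 23. Muscle fibre markers also averaged 9.18 on liver control array 52, against 5.46 and 5.77 on the other liver control arrays, and 8.02 on brain control array 36, against 5.79 to 6.21 on the other brain control arrays. Hepatocyte markers averaged 10.67 on spleen control array 26, against 5.28 to 8.18 on the other spleen arrays. Of the 51 marker probe sets, 0 were at zero signal on every array of a group. In whole tissue, fewer cells of a type and less RNA per cell cannot be told apart.

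All 74 genes lay above the low-signal filter, which left out the lowest 40% of probe sets, in every tissue. They are spread over 17 chromosomes, with 11 genes on chromosome 11 and 8 on chromosome 17. RefSeq promoter windows (250 bases before to 50 after the annotated start, GRCm38.p6) were at hand for 65 of the 74 genes, as 71 windows. Short motifs of factors known to drive nuclear genes for mitochondrial proteins were searched on both strands. The NRF1 motif GCGCANGCG was in 16 of the 71 windows (22.5%), against 6.25% of all 32851 windows and 8.58% of those of protein-coding genes. The GABPA motif CCGGAAG was in 24 (33.8%), against 8.86% and 11.6%. The YY1 motif AAGATGGC was in 12 (16.9%), against 2.75% and 3.05%. At least 1 of these 3 motifs was in 59.2% of the members' windows and in 15.96% of all windows. The ESRRA motif TCAAGGTCA was in 0 of the 71 windows and in 0.423% of all windows, and the E-box CACGTG, bound by MYC among others, was in 7 (9.86%), against 7.15%. These are counts of windows, not genes: several of the 7 E-box windows are overlapping windows of Mrpl2.

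The windows shown belong to 4 of the 5 members whose response to swimming had the smallest p-values for a difference between tissues, since no window was used for the remaining one, Mrpl38. Capitals mark a match to one of the 5 motifs, and matches are descriptions of these letters, not binding sites. Sequences run 5′ to 3′ on the gene's strand. Mrps18b (chr17:35916391-35916690, minus strand) holds an NRF1 and a GABPA match, Mrpl17 (chr7:105811038-105811337, minus strand) 2 NRF1 matches and a GABPA match, Mrps24 (chr11:5707652-5707951, minus strand) a YY1 match just after the start, and Mrpl9 (chr3:94443086-94443385, plus strand) an NRF1 palindrome that matches on both strands.
Mrps18b: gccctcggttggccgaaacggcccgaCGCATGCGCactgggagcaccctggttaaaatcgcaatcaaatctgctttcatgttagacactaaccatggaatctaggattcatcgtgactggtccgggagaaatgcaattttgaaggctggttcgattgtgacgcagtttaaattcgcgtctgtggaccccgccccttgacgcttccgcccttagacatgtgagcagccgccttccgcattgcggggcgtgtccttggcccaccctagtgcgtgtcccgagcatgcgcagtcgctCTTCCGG
Mrpl17: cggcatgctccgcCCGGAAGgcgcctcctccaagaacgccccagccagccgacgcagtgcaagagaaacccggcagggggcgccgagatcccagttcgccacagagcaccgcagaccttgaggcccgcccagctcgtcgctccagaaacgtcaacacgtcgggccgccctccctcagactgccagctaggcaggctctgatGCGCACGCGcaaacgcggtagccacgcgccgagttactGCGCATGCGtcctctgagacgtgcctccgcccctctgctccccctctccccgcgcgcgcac
Mrps24: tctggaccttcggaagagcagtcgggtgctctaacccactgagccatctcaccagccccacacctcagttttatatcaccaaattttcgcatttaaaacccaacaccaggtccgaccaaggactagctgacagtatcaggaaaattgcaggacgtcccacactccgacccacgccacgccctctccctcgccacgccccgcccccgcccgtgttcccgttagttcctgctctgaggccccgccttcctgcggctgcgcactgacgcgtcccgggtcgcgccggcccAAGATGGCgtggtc
Mrpl9: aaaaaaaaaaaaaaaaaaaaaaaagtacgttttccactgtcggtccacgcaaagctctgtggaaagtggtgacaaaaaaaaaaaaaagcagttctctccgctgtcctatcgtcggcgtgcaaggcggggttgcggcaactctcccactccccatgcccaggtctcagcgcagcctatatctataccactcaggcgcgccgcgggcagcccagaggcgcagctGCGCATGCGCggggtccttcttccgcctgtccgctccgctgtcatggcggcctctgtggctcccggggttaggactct

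In control mice, mitoribosomal protein transcripts stood highest in skeletal muscle and lowest in brain and spleen, relative to the other genes of each tissue. Each array was set to its own median over all probe sets with 1 symbol, dim ones included. Each tissue was then compared with the mean of the other 6 in 1 limma fit over the 27 control arrays, with Benjamini-Hochberg adjustment over 11720 genes at a threshold of 0.05. The median of the 74 members per array was then set against the median of the 11720 genes tested on that array. It was 1.36 to 1.56 log2 units above it in muscle, 0.999 to 1.055 in liver, 0.72 to 1.05 in visceral fat, 0.65 to 0.76 in kidney, -0.05 to 0.89 in subcutaneous fat, 0.14 to 0.24 in brain and -0.05 to 0.04 in spleen. Muscle lay above every array of the other tissues, the arrays of liver and visceral fat overlapped, as did those of visceral fat and kidney, and those of subcutaneous fat overlapped all but muscle and liver. Large and small subunit followed the same course. In muscle their medians differed from the mean of the other 6 tissues by 1.09 and 0.98, and in spleen by -0.90 and -0.70.

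In muscle, 71 of the 74 members were higher than the mean of the other tissues and 0 lower, where 43.5% of all genes were higher and 36% lower. The exceptions were Mrps35, Mrpl49 and Mrpl20. The median member difference was 1.01, against 0.07 for all genes, and 51 members had their highest tissue mean in muscle, against 24.3% of all genes. Mrpl42, a large subunit protein without a bacterial counterpart, had the widest range of tissue means over the 74 members, at 3.43. Above the array's median over all probe sets with 1 symbol, its level was 6.12, 5.64, 6.12 and 6.08 on the muscle control arrays, against 2.39 to 4.42 on the 23 control arrays of the other tissues. Levels of single genes are thus on another scale than the members' medians per array. The muscle arrays lay above all others. The difference of muscle from the mean of the other 6 was 2.47 ± 0.16 (SE, adjusted p = 8.31e-13, limma). These Mrpl42 values rest on the brighter of its probe sets. That one averaged 12.17 in muscle and 9.25 in spleen (log2 signal, quantile normalized within the tissue, swim and control arrays together). The dimmer one averaged 10.86 in muscle and 8.97 in spleen, a smaller gap. Mrps28 followed, at 2.24 to 2.56 in muscle against -0.83 to 1.31 in the others, a difference of 1.91 ± 0.12 (SE, adjusted p = 4.64e-13). Mrpl15, which has a bacterial counterpart, differed by 1.83 ± 0.11 (SE, adjusted p = 1.64e-13).

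Brain and spleen lay at the other end. In brain, 0 members were higher and 67 lower, beside 22.4% and 62.3% of all genes, so most genes lay lower there, and the median difference was -0.84 against -0.50 for all genes. The lowest were Mrps28 at -1.66 ± 0.12, Mrpl33 at -1.62 ± 0.14 and Mrps24 at -1.62 ± 0.11 (SE, adjusted p at most 1.82e-10), and 39 members had their lowest mean in brain, against 38.7% of all genes. In spleen, 0 members were higher and 71 lower, beside 32.2% and 50% of all genes, with a median of -0.83 against -0.24. All 46 large subunit genes were among the 71. Mrpl42 was lowest against the other tissues in spleen, at -1.53 ± 0.16, followed by Mrpl50 at -1.41 ± 0.14 and Mrps10 at -1.38 ± 0.17. The proteins of the cytosolic ribosome took another course there. Of the 66 cytosolic ribosomal protein genes tested, 50 were higher and 2 lower in spleen than in the mean of the other tissues, while in brain 0 were higher and 65 lower.

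Liver and visceral fat lay above the mean of the other tissues. In liver 56 members were higher and 2 lower, beside 43.6% and 28.7% of all genes, and the median difference was 0.57 against 0.15. Mrps31 at 1.41 ± 0.13, Mrpl15 at 1.25 ± 0.12 and Mrps10 at 1.24 ± 0.19 led, and the lower pair was Mrps36 at -0.58 ± 0.18 and Mrps25 at -0.38 ± 0.14 (SE). Without liver control array 52, which carried muscle fibre markers, the members' median difference relative to all genes was 0.47, against 0.41 with it. In visceral fat 52 were higher and 0 lower, beside 46.8% and 27.3%, with a median of 0.41 against 0.17. Mrpl20 at 1.03 ± 0.16, Mrps15 at 1.02 ± 0.16 and Mrps34 at 0.99 ± 0.18 led.

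Kidney was mixed, with 21 members higher and 5 lower, beside 28.1% and 42.7% of all genes. Mrpl12, a protein of the stalk that recruits translation factors, was higher by 0.94 ± 0.17, Mrpl50 by 0.89 ± 0.14 and Mrpl4 by 0.83 ± 0.09, while Mrpl41 at -0.50 ± 0.09, Mrpl23 at -0.41 ± 0.15 and Mrps18c at -0.40 ± 0.14 were lower (SE). The median member differed by 0.07, against -0.14 for all genes. Of the 66 cytosolic ribosomal protein genes, 53 were lower in kidney and 1 higher. Mrps36 was higher in kidney by 0.79 and in muscle by 1.77, and lower in liver by -0.58.

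In subcutaneous fat 0 members were higher and 59 lower, beside 22.5% and 45.2% of all genes, but the 4 arrays did not form 1 group. Relative to the median of the genes tested on the array, the members' median reached 0.89 on the highest array and -0.05 on the lowest. The single estimate of spread shared by all tissues understates the spread here: the standard error of Mrpl12, at -0.92, was 0.17, while its 4 arrays had an SD of 0.75. Mrpl18 at -0.93 and Mrps14 at -0.86 were the other lowest members. B cell markers were at 11.30 to 11.33 on control arrays 18, 19 and 20, and the members' median there was 0.34, -0.05 and 0.13. Over the 4 control arrays T cell markers ranged from 5.24 to 10.94 and lymph node venule markers from 5.38 to 10.81. Between the arrays of highest and lowest level, adipocyte and B cell markers both differed. Adipocyte markers averaged 12.42 on control array 17, which was highest in members and had B cell markers at 5.27, and 10.56 on control array 19, which was lowest in members and had B cell markers at 11.30. Their part in the result was not tested.

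**Figure D1:**
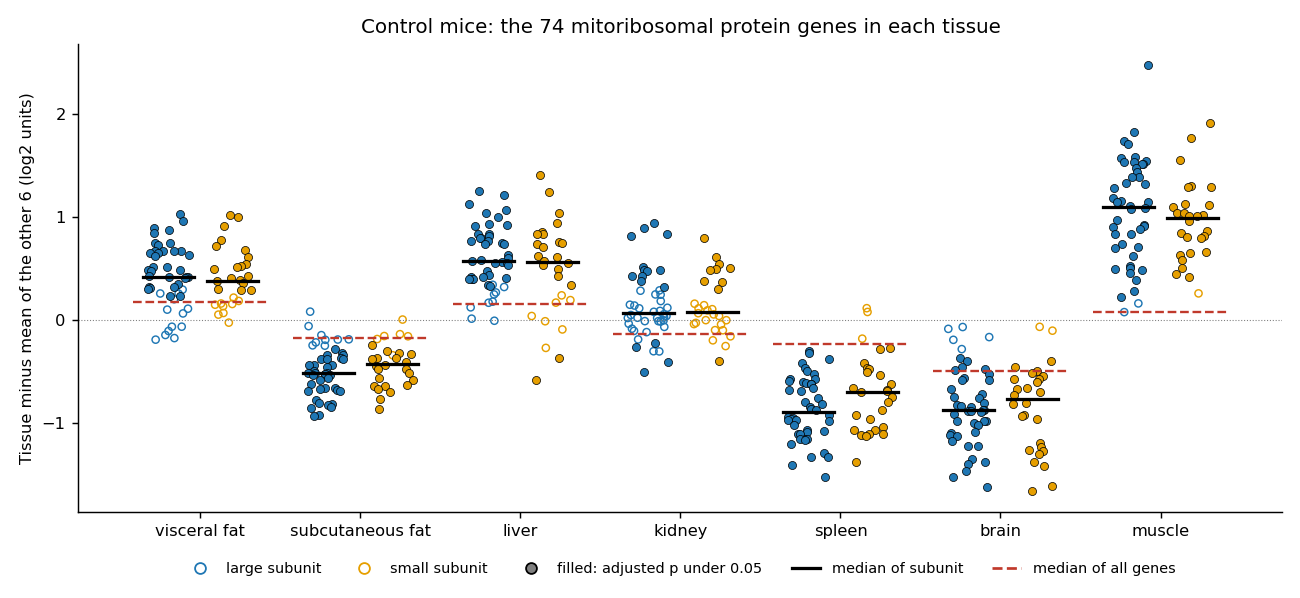
Each point is 1 mitoribosomal protein gene in control mice, and the vertical axis is its level in the tissue minus the mean of the other 6 tissues in log2 units. Large subunit genes are on the left of each tissue and small subunit genes on the right, filled points have an adjusted p under 0.05, black bars are subunit medians and dashed lines the median of all genes: in muscle the members' median is 1.01 against 0.07 for all genes, and in spleen -0.83 against -0.24.

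Swimming was compared with control within each tissue by limma, on log2(signal + 16) values then quantile normalized within the tissue, adjusted over all genes tested. Across tissues, 46 tests of members passed in 32 genes: 43 were lower in swimming mice and 3 higher. Another 42 members passed in no tissue, 23 passed in 1, 4 in 2 and 5 in 3. The last were Mrpl17, Mrpl28, Mrpl38, Mrpl4 and Mrps34. None passed in subcutaneous fat, liver or brain.

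**Figure D2:**
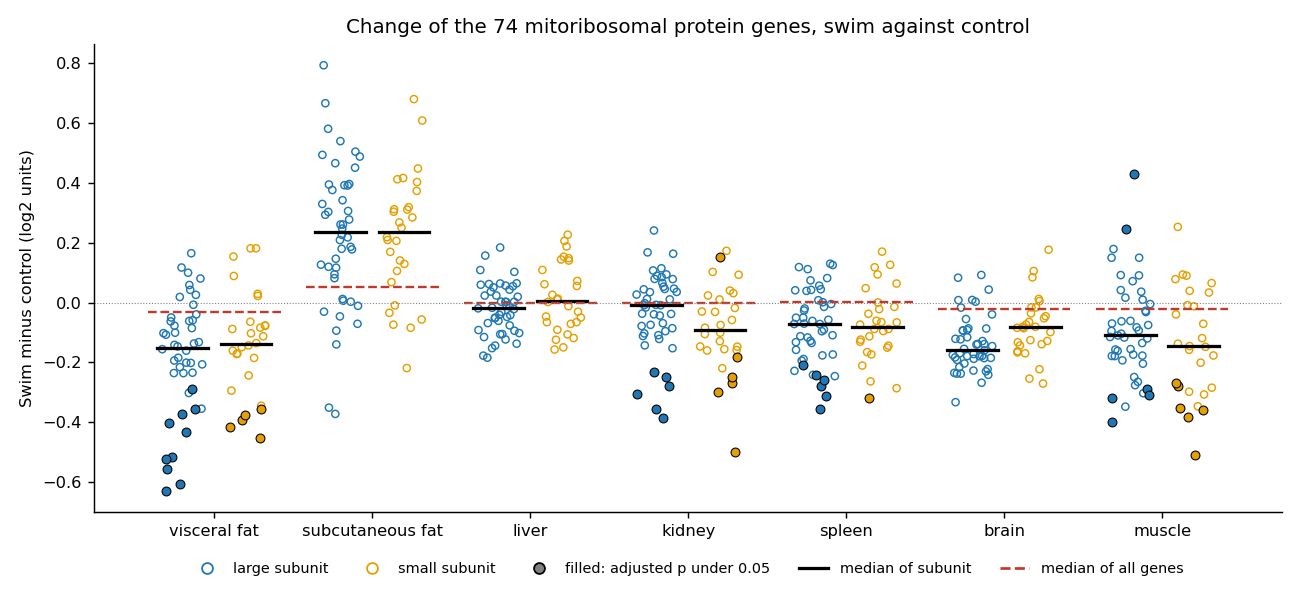
Each point is 1 mitoribosomal protein gene, and the vertical axis is swim minus control in log2 units, by tissue, with the large subunit left and the small subunit right in each tissue. Filled points have an adjusted p under 0.05, black bars are subunit medians and dashed lines the median of all genes: filled points lie below 0 except 2 in muscle and 1 in kidney, and in subcutaneous fat the points lie mostly above 0 with none filled.

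In visceral fat 15 members fell and 0 rose, where 12.1% of all genes were lower and 11.3% higher. By symbol 10 of these belong to the large subunit and 5 to the small, the latter including Mrps18a, which sits in the large subunit. Mrpl38, a large subunit protein with no bacterial counterpart, was at 8.67, 8.71, 8.71 and 8.54 on swim arrays (log2 signal, in replicate order), against 9.04, 9.40, 9.40 and 9.29 on control arrays. The groups did not overlap. The change was -0.63 ± 0.09 (SE, adjusted p = 0.00253, limma). Mrpl52 was at 8.33 to 8.69 on swim arrays and 8.88 to 9.65 on control arrays, a change of -0.61 ± 0.16 (adjusted p = 0.0216). Mrpl19 changed by -0.52 ± 0.13 (adjusted p = 0.0175), and Mrpl45, which anchors the mitoribosome at the inner membrane beside the exit tunnel, by -0.52 ± 0.09 (adjusted p = 0.00463). Mrpl45 was at 7.83, 7.96, 8.23 and 7.95 on swim arrays and tightly grouped at 8.46 to 8.54 on control arrays. Mrps7, part of the decoding head of the small subunit, changed by -0.45 ± 0.11 (adjusted p = 0.0176).

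The members' median change in visceral fat was -0.14, against -0.03 for all genes, and 59 of 74 lay below the all-gene median. Relative to that median the large subunit changed by -0.12 and the small by -0.11. On single arrays the members' median lay 0.44 to 0.63 above the median of the genes tested in swimming mice and 0.63 to 0.91 in control mice, so the groups overlapped by a narrow margin. In all, 16 members were below every control array on every swim array and 0 above, beside 13.9% and 13.3% of all genes. The calls turn on the scaling here: with arrays centred on their medians, which moves the median of all genes to -0.18, 49 members passed, all lower, where 34.5% of all genes were lower. With the values as deposited 2 members passed, where 2.86% of all genes were lower. All 5 macrophage markers lay above the filter, with summed signals of 1660 to 2410 on swim arrays and 1204 to 3066 on control arrays and a mean log2 difference of 0.59, and adipocyte markers summed to 23866 to 32304 on swim arrays and 34159 to 46797 on control arrays. Their part in the result was not tested.

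Related genes are read against the 12.1% of all genes that were lower in visceral fat and the 11.3% that were higher. Of 15 translation factors 4 fell and 0 rose, among them Mpv17l2 at -0.50 ± 0.09, an assembly factor, Tsfm at -0.44 ± 0.12, the exchange factor of elongation factor Tu, and Mtif3 at -0.35 ± 0.11, an initiation factor (SE, adjusted p at most 0.0400). Of 22 genes for mitoribosome assembly and rRNA modification 7 fell and 0 rose, led by Rpusd4 at -0.46 ± 0.07, Eral1 at -0.46 ± 0.11 and Rcc1l at -0.45 ± 0.11. Among 19 mitochondrial aminoacyl-tRNA synthetases and amidotransferase subunits, Gatb at -0.57 ± 0.15 and Sars2 at -0.45 ± 0.12 fell and Rars2 rose by 0.21 ± 0.06, a share near that of all genes. Of 13 regulators of mitochondrial gene expression, Myc fell by 0.85 ± 0.16 and Esrra, a nuclear receptor that drives genes of oxidative metabolism, rose by 0.43 ± 0.14, with overlapping arrays.

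In kidney 11 members fell and 1 rose, where 13.6% of all genes were lower and 10.8% higher, a share near that of genes at large. The largest fall was that of Mrps18b, which lies at chr17:35910380-35916440. It was at 8.88, 8.83, 8.96 and 8.89 on swim arrays, against 9.43, 9.32, 9.35 and 9.46 on control arrays. The groups lay well apart, and the change was -0.50 ± 0.05 (SE, adjusted p = 0.000280, limma). Its relatives Mrps18a and Mrps18c did not pass in kidney. Mrpl38 was at 8.81 to 9.11 on swim arrays and 9.31 to 9.40 on control arrays, a change of -0.39 ± 0.06 (adjusted p = 0.00244). Mrpl34, Mrpl17 and Mrps28 changed by -0.36 ± 0.05, -0.30 ± 0.06 and -0.30 ± 0.05 (adjusted p at most 0.00515). Mrps9, a small subunit protein, was the only member to rise, by 0.15 ± 0.05 (adjusted p = 0.0460), a call lost in 7 of 8 fits that left out 1 array. It was at 7.80 to 7.90 on swim arrays and 7.61 to 7.77 on control arrays.

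The kidney members as a group stayed near the all-gene median. Their median change was -0.04 against -0.0019 for all genes, with the large subunit at -0.01 and the small at -0.09 relative to all genes. The members' median per array pointed the other way, at 0.58 to 0.72 in swimming mice and 0.57 to 0.66 in control mice, with overlap. In 15 members every swim array was below every control array, and in 1 above, beside 15.2% and 12.5% of all genes. With the values as deposited 0 members passed, where 0.121% of all genes were lower. Macrophage markers, all 5 above the filter, summed to 438 to 829 on swim arrays and 664 to 934 on control arrays, with a mean log2 difference of -0.53, and their part in the result was not tested.

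Of the related genes in kidney, where 13.6% of all genes were lower, those that fell were 6 of 15 translation factors, led by Mpv17l2 at -0.57 ± 0.05, Oxa1l at -0.27 ± 0.05, the insertase that receives new proteins at the inner membrane, and Tsfm at -0.37 ± 0.07. Also lower were 6 of 19 synthetases and amidotransferase subunits, led by Gatc at -0.33 ± 0.05, Sars2 at -0.37 ± 0.06 and Gatb at -0.30 ± 0.05, and 3 of 22 assembly genes, Nsun4 at -0.46 ± 0.06, Mtg2 at -0.32 ± 0.06 and Rpusd4 at -0.15 ± 0.05 (SE, adjusted p at most 0.0343 for those named). The share of assembly genes equalled that of all genes. Of the regulators, Ppargc1a, a coactivator of mitochondrial biogenesis, rose by 0.33 ± 0.05 (adjusted p = 0.00180), and Gabpb1, a subunit of the factor that binds the GABPA motif, fell by 0.17 ± 0.05 (adjusted p = 0.0373). Of 66 cytosolic ribosomal protein genes, 5 rose and 1 fell.

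In spleen 7 members fell and 0 rose, where 6.97% of all genes were lower and 7.04% higher. Mrpl57 was at 9.19, 9.16, 9.09 and 9.04 on swim arrays, against 9.46, 9.52, 9.62 and 9.29 on control arrays. The groups did not overlap, and the change was -0.35 ± 0.07 (SE, adjusted p = 0.0197, limma). Mrpl28 changed by -0.31 ± 0.06, Mrpl11, at the base of the stalk, by -0.28 ± 0.05, Mrpl34 by -0.26 ± 0.07 and Mrpl17 by -0.24 ± 0.06 (adjusted p at most 0.0384). The calls of Mrpl34 and Mrpl17 were each lost in 7 of 8 fits that left out 1 array, and that of Mrpl57 in 3. Mrps34 passed with overlapping arrays and Mrpl4 with an adjusted p of 0.0497. When each probe set was tested, the probe sets of Mrps10 differed in spleen. The dimmer one passed at -0.29 (adjusted p = 0.0224), while the brighter one, which stood for the gene, was at -0.02 (adjusted p = 0.923).

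The members' median change in spleen was -0.07, against 0.0039 for all genes, and 56 of 74 lay below the all-gene median. Their median per array was -0.17 to -0.11 in swimming mice and -0.14 to -0.06 in control mice, with overlap, and 12 members had every swim array below every control array and 3 above, beside 11.0% and 12.8% of all genes. Scaling moved the calls most here: with the values as deposited, which shift the median of all genes in spleen by -0.27, 51 members passed as lower, where 44.5% of all genes were lower. With arrays centred on their medians 14 passed, where 7.68% of all genes were lower. Leaving out control array 25 left 1 call, in a fit whose share of all genes is not given here. All 5 neutrophil markers lay above the filter and summed to 166 to 528 on swim arrays and 2293 to 5278 on control arrays, while B cell markers summed to 12345 to 15404 on swim arrays and 13444 to 16095 on control arrays. Macrophage markers summed to 2285 to 2989 on swim arrays and 3926 to 5317 on control arrays. Erythroid markers summed to 2517 to 6672 on swim arrays and 7332 to 7785 on control arrays. The part of these cells in the result was not tested. Without control array 26, which carried hepatocyte markers, 2 members passed, both lower, where 3.99% of all genes were lower and 2.86% higher. Among the related genes in spleen, 1 of 15 translation factors rose and 2 fell, 4 of 19 synthetases and amidotransferase subunits rose and 0 fell, and 2 of 22 assembly genes fell and 0 rose. Mpv17l2 changed by -0.44 ± 0.06 and Tufm, elongation factor Tu, by -0.32 ± 0.06, and Cars2, Ears2, Fars2 and Rars2 rose by 0.20 to 0.40 (SE, adjusted p at most 0.0255).

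In skeletal muscle 10 members fell and 2 rose, where 5.68% of all genes were lower and 5.68% higher. Mrps34, which stabilises the small subunit, lies at chr17:24895120-24896289. It was at 7.999, 8.13 and 7.81 on swim arrays, against 8.54, 8.39, 8.58 and 8.45 on control arrays, without overlap, a change of -0.51 ± 0.09 (SE, adjusted p = 0.0166, limma). Mrps24 was at 8.89, 8.82 and 8.96 on swim arrays and 9.25 to 9.30 on control arrays, a change of -0.38 ± 0.06 (adjusted p = 0.0131). Mrpl44 changed by -0.40 ± 0.10, Mrps16 by -0.36 ± 0.08 and Mrps10 by -0.35 ± 0.07 (adjusted p at most 0.0393). The calls of Mrpl44 and Mrps16 were each lost in 6 of 7 fits that left out 1 array. The dimmer probe set of Mrps10 did not pass in muscle when each probe set was tested, at -0.20 (adjusted p = 0.163). By symbol the small subunit supplied 6 of the 10 falls, but these include Mrps18a, which sits in the large subunit.

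Both members called higher in muscle fell in other tissues. Mrpl17, at chr7:105803782-105811087, was at 9.68, 9.53 and 9.46 on muscle swim arrays, against 9.12, 9.24, 9.14 and 9.02 on control arrays, a rise of 0.43 ± 0.08 (SE, adjusted p = 0.0199, limma). It fell in kidney and spleen. Mrpl38, at chr11:116131817-116138868, was at 9.34, 9.38 and 9.34 on muscle swim arrays, against 9.15, 9.02, 9.13 and 9.13 on control arrays, a rise of 0.25 ± 0.06 (adjusted p = 0.0346). This call was lost whichever of the 7 arrays was left out, with differences of 0.22 to 0.26, and that of Mrpl17 in 2 of the 7 cases. With the values as deposited this difference was -0.02, on a scale where the median of all genes in muscle shifted by -0.23.

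The median change of the members in muscle was -0.12, against -0.02 for all genes. Relative to all genes the small subunit changed by -0.13 and the large by -0.09. The members' median per array was 1.16 to 1.18 in swimming mice and 1.22 to 1.40 in control mice, without overlap, but for the large subunit alone it was 1.51 to 1.55 in swimming mice and 1.33 to 1.56 in control mice. In 27 members every swim array was below every control array and in 6 above, beside 15.7% and 12.9% of all genes. Without swim array 46 no member passed, in a fit whose share of all genes is not given here. With the values as deposited 1 did, where 2.68% of all genes were lower. Muscle fibre markers summed to 78807 to 84631 on swim arrays and 81096 to 116157 on control arrays, and macrophage markers, all 5 above the filter, to 284 to 297 on swim arrays and 363 to 606 on control arrays. Mean marker levels were higher in swimming mice by 0.81 for adipocytes (7.75 to 9.19 on swim arrays, 6.70 to 8.36 on control arrays), by 0.83 for hepatocytes (7.57 to 9.54 on swim arrays, 6.58 to 9.08 on control arrays) and by 0.40 for brown adipocytes, with overlap in each. Their part was not tested. Of the related genes in muscle, 1 of 15 translation factors rose and 3 fell, 1 of 19 synthetases and amidotransferase subunits rose and 2 fell, 1 of 22 assembly genes fell, and 1 of 13 regulators rose and 3 fell. Oxa1l rose by 0.31 ± 0.06, while Taco1, an activator of cytochrome oxidase translation, changed by -0.34 ± 0.06, Mtrf1l by -0.32 ± 0.07, Mrm1 by -0.40 ± 0.09 and Aars2 by -0.31 ± 0.06 (SE, adjusted p at most 0.0312). Myc rose by 0.51 ± 0.10, and Esrra and the mitochondrial DNA factors Tfam and Tefm changed by -0.35 ± 0.08, -0.27 ± 0.06 and -0.27 ± 0.07 (adjusted p at most 0.0430).

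**Figure D3:**
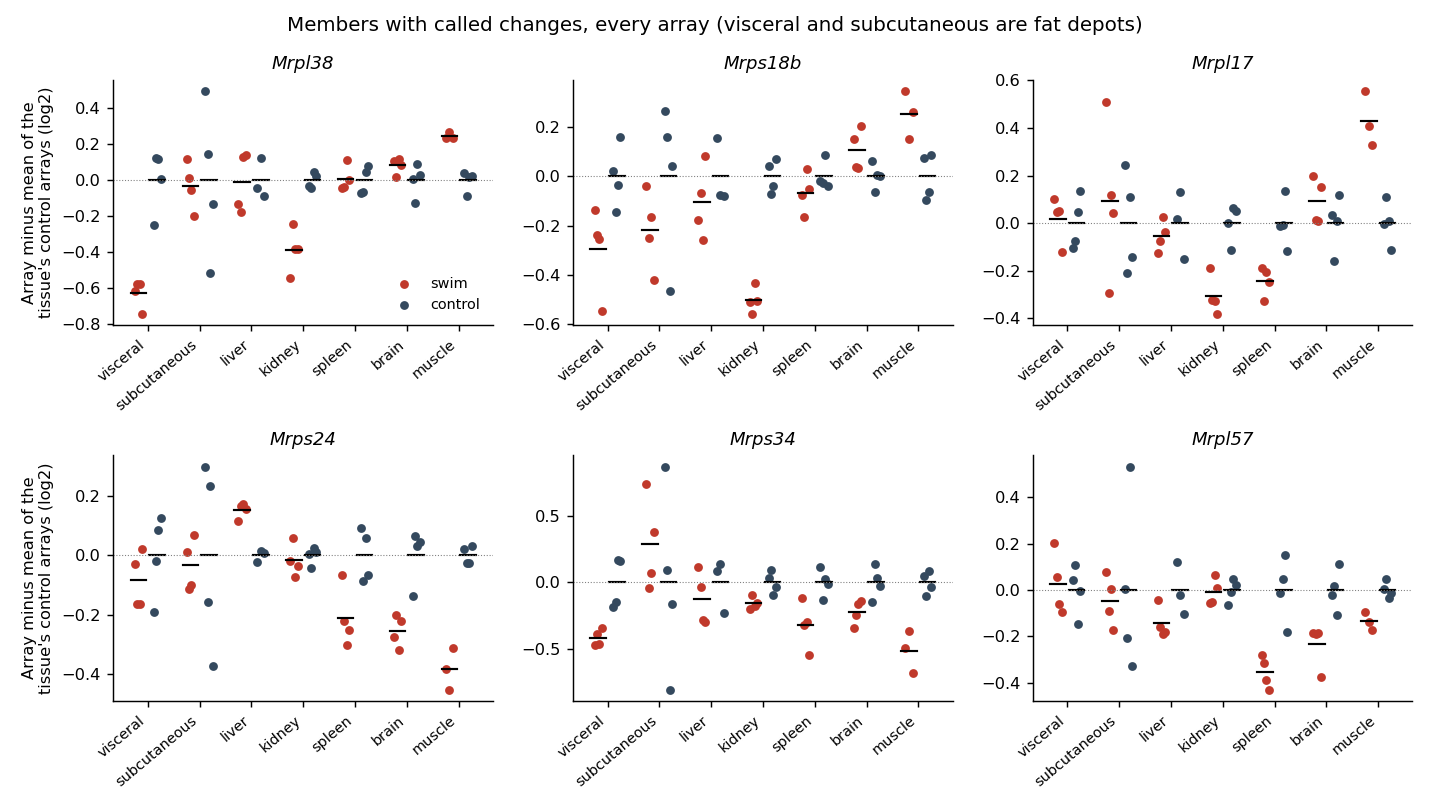
Points are single arrays of 6 members, swim left of control in each tissue, as log2 signal minus the mean of the tissue's control arrays, and bars are group means. Mrpl38 lies below its controls in visceral fat and kidney and above them in muscle, Mrps18b lies apart in kidney by 0.50, and Mrpl17 lies below in kidney and spleen and above in muscle.

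In brain no member passed, where 0.0516% of all genes were lower and 0.430% higher, yet the members lay together on 1 side. At an unadjusted p under 0.05, 34 members were lower and 1 higher. The share of all genes at this unadjusted threshold is not given here for any tissue, so such counts have no background beside them. The median change was -0.13, against -0.02 for all genes, with 60 of 74 below the all-gene median, and -0.14 for the large and -0.06 for the small subunit relative to all genes. The members' median per array was -0.15, -0.12, -0.12 and -0.10 in swimming mice, against -0.06, -0.02, -0.02 and 0.05 in control mice, without overlap. In 23 members every swim array was below every control array and in 1 above, beside 6.06% and 6.00% of all genes. The smallest p-values belonged to Mrpl27, part of the peptidyl transferase centre, Mrpl20 and Mrps24. Mrpl27 was at 8.15 to 8.25 on swim arrays and 8.38 to 8.49 on control arrays, a difference of -0.23 ± 0.05 (SE, adjusted p = 0.106, limma). Mrpl20 differed by -0.22 ± 0.05 (adjusted p = 0.117) and Mrps24 by -0.25 ± 0.06 (adjusted p = 0.119). With array weights in the fit, 37 members passed, all lower, where 15.3% of all genes were lower and 11.6% higher. Cytosolic ribosomal protein genes lay on the same side, with a median change of -0.09 over 66 genes and 13 lower at an unadjusted p under 0.05. Macrophage markers, 4 of 5 above the filter, summed to 335 to 584 on swim arrays and 506 to 835 on control arrays, and neuron and glia markers to 18566 to 24230 on swim arrays and 16490 to 28989 on control arrays. Muscle fibre markers, 3 of 5 above the filter, summed to 159 to 258 on swim arrays and 244 to 1138 on control arrays. Without control array 36, the highest in these, the members' median relative to all genes was -0.10, against -0.11 with it. In that fit 20 members were lower at an unadjusted p under 0.05, against 34 with all arrays. With fewer control arrays to overlap, 25 members had every swim array below every control array, beside 8.31% of all genes. The part of any of these markers in the brain result was not tested.

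In liver no member passed, where 2.16% of all genes were lower and 1.84% higher, and 3 members were higher and 3 lower at an unadjusted p under 0.05. The median change was -0.01, against -0.0006 for all genes, and the range over members was -0.18 to 0.23. In 8 members every swim array was below every control array and in 3 above, beside 10.7% and 9.93% of all genes. Mrps24 was at 9.10 to 9.16 on swim arrays and 8.96 to 9.00 on control arrays, a difference of 0.15 ± 0.05 (SE, adjusted p = 0.154, limma), and Mrpl35 and Mrpl12 differed by -0.15 ± 0.06 and -0.18 ± 0.07 (adjusted p at most 0.176). Ppargc1a rose by 0.82 ± 0.15 in liver (adjusted p = 0.0268), with 0 calls among the liver's other related genes of mitochondrial translation.

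In subcutaneous fat no member passed, and neither did any gene, with 0% higher and 0% lower by limma. At an unadjusted p under 0.05, 5 members were higher and 2 lower. The members' median difference was 0.24, against 0.05 for all genes, with a wide spread between control arrays. The members' median per array was 0.56, 0.55, 0.50 and 0.41 in swimming mice, against 0.76, 0.30, -0.11 and 0.10 in control mice. The control arrays thus lay on both sides of all swim arrays. Only 2 members had every swim array below every control array and 0 above, beside 5.52% and 3.54% of all genes. Mrpl12 was at 9.34, 9.35, 8.92 and 8.97 on swim arrays and 9.12, 8.34, 7.67 and 8.28 on control arrays, a difference of 0.79 ± 0.29 (SE, adjusted p = 0.212, limma). Mrpl35 differed by 0.49 ± 0.16 (adjusted p = 0.206) and Mrpl52 by -0.37 ± 0.14 (adjusted p = 0.212). Without control array 17, the array with few B cell markers among the controls, 18 members passed, all higher, where 18.1% of all genes were higher and 16.4% lower. Without swim arrays 22 and 23 none did, and the median relative to all genes was 0.20. B cell markers, all 4 above the filter, summed to 53 to 6735 on swim arrays and 69 to 12319 on control arrays. Their part in the result was not tested.

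**Figure D4:**
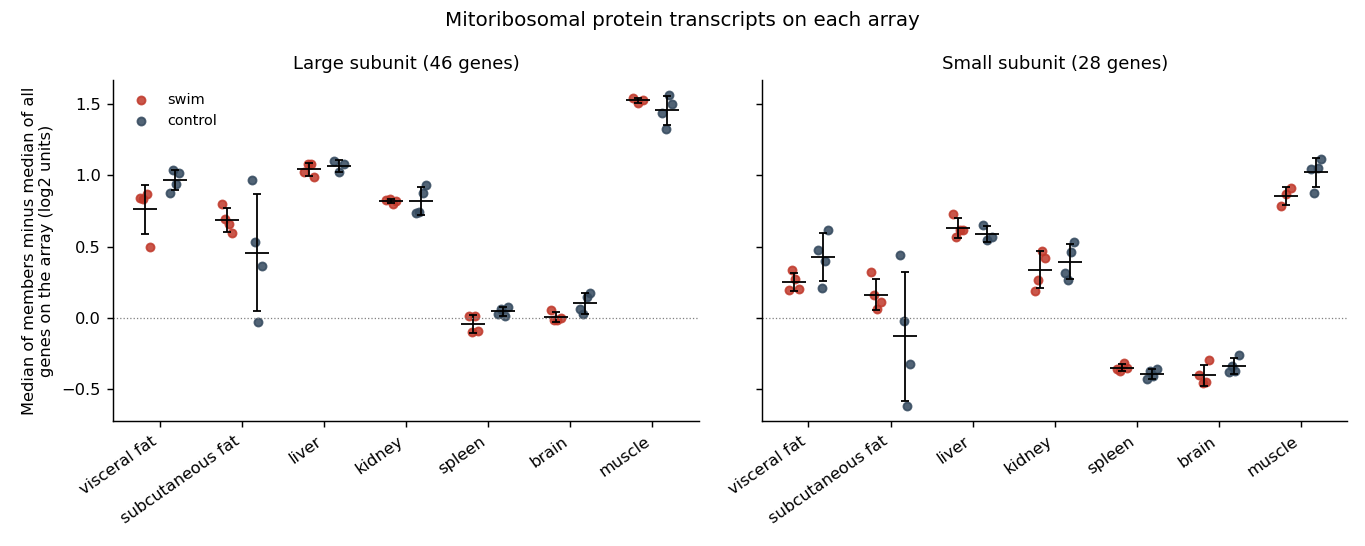
Each point is 1 array, swim left of control in each tissue, and the vertical axis is the median of the members minus the median of all genes on the array in log2 units, with bars for mean and SD. The large subunit is on the left and the small on the right: control arrays of subcutaneous fat lie on both sides of the swim arrays, and the small subunit lies lower in muscle of swimming mice, at 0.78 to 0.91 against 0.88 to 1.11 in control mice.

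Whether the response differed between tissues was tested by 1 limma fit over the 54 arrays with an F test across the 7 swim effects and weights by tissue. It passed for 39 of the 74 members (52.7%), where 47.3% of all genes passed, so the members' share was near that of genes at large. Of these, 28 were large subunit genes and 11 small. The smallest p-value was that of Mrpl38 (adjusted p = 2.78e-07, limma), with effects of -0.63 in visceral fat, -0.39 in kidney and 0.25 in muscle and between -0.03 and 0.08 in the other 4 tissues. Mrps18b followed (adjusted p = 3.99e-07), with -0.50 in kidney, -0.29 in visceral fat, -0.22 in subcutaneous fat and 0.25 in muscle. Its difference in muscle had an adjusted p of 0.0655 in that tissue's own fit. Mrpl17 (adjusted p = 1.83e-06) had -0.30 in kidney and -0.24 in spleen, and 0.43 in muscle. Mrps24 (adjusted p = 8.84e-05) had -0.38 in muscle, -0.25 in brain and -0.21 in spleen, against 0.15 in liver. Mrpl9 (adjusted p = 0.000142) had -0.40 in visceral fat and -0.31 in muscle and 0.21 in subcutaneous fat. With the values as deposited, 1 member passed, and 9.96% of all genes did.

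**Figure D5:**
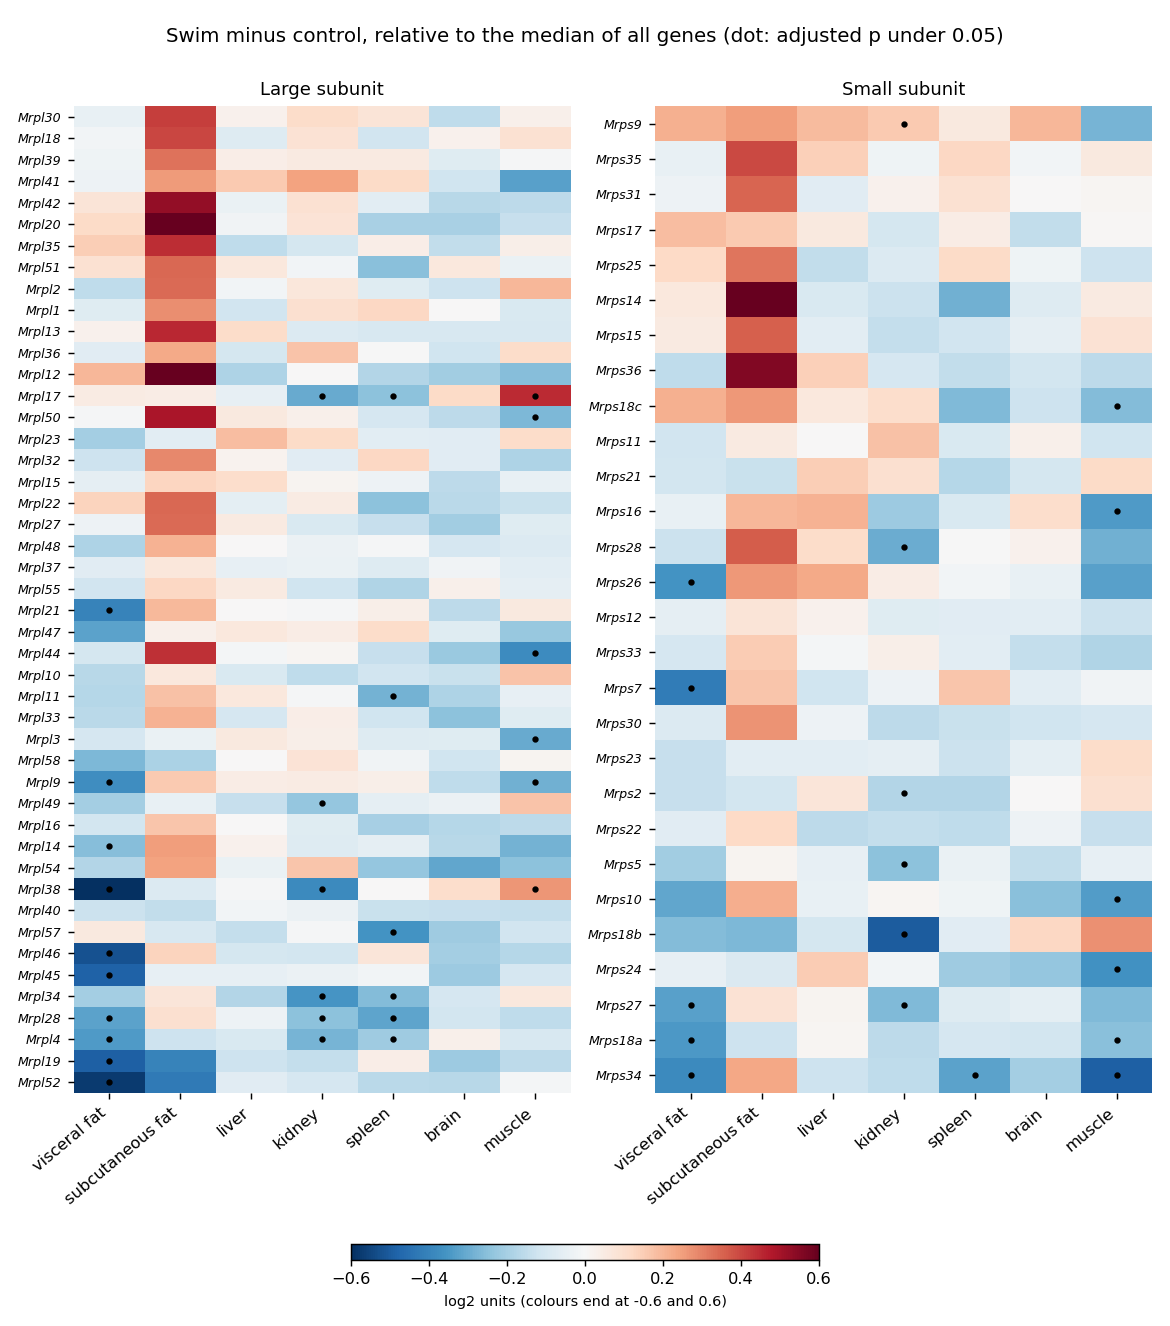
Rows are the 74 genes, by subunit and then by their mean over tissues, columns the 7 tissues, and colour is swim minus control in log2 units relative to the median of all genes, with dots at an adjusted p under 0.05. The dots lie in visceral fat (15), kidney (12), muscle (12) and spleen (7), with none in subcutaneous fat, liver or brain.

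The 12 genes with 2 probe sets allow a check within genes, since only the brighter probe set of each entered the tests. When each of them was tested, both probe sets of Mrps5 fell in kidney, with changes of -0.25 and -0.25. The dimmer probe set of Mrpl27 passed in visceral fat at -0.26, kidney at -0.22 and brain at -0.28, where the brighter one did not pass. The dimmer probe set of Mrps30 passed in visceral fat at -0.43 (adjusted p = 0.0223), while the brighter one was at -0.11 (adjusted p = 0.338). Mrpl12 was represented by a different probe set in liver and kidney than in the other tissues.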

How the data were processed

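Gene expression was measured on 1 Affymetrix array per sample. The deposited values are linear intensity per probe set, made by the authors, and the submitters' processing notes name PLIER and limma without roles. Array processing beyond that is not given in the sources used here. Gene symbols came from the platform annotation: of 25917 probe sets, 21086 had 1 symbol, 1867 several and 2964 none.

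Signals were converted to log2(signal + 16) and then quantile normalized within each tissue, and the lowest 40% of probe sets by tissue mean were left out. For a gene with several probe sets the one with the highest mean was used. Fold changes are on the log2(signal + 16) scale, which understates changes of dim genes. Tests were made with limma 3.58.1 in R 4.3.3 (lmFit and eBayes), with Benjamini-Hochberg adjustment over all genes. Levels of single genes at rest were each control array minus its median over probe sets with 1 symbol. Members' medians per array were taken relative to the median of the genes tested. The test between tissues used array weights by tissue. Scripts were tested on simulated data. Promoter windows came from RefSeq. The text names, per tissue, up to 5 members with the largest rise and 5 with the largest fall among those that passed without overlap of arrays (where fewer than 3 passed, the 3 of smallest p), up to 3 highest and 3 lowest at rest, the 5 of smallest p between tissues, members with several probe sets, Mrps18a, Mrps18b, Mrps18c, Mrps30, Mrps36 and Mrpl12, and up to 3 genes of each related list. The members and lists were chosen with earlier results of these data known. No pair of arrays had identical values. Alternatives were other scalings, pseudocounts of 1 and 64, other filters, array weights, 1 fit of all arrays, and leaving out each array.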

Additional observations from a re-analysis of the deposited data

Results flagged for a closer look

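Single arrays lay far from the rest of their group of 4 in 6 of the 90 groups examined, where chance gives about 1 in 20. The gap, as a share of the group's range, was 0.92 for the members' median in visceral fat of swimming mice and 0.899 for the large subunit there, where 1 array lay at 0.50 and the others at 0.83 to 0.87. It was 0.897 for the members' median in control spleen. It was 0.96 for Mrps28 in kidney of swimming mice (7.06 against 7.20 to 7.21), 0.837 for Mrps24 in control brain (7.62 against 7.79 to 7.82) and 0.848 for Mrpl38 in control muscle (9.02 against 9.13 to 9.14).

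The members below passed limma's F test for a swim effect that differs between tissues. They were named for large changes within a tissue or for this same test, so their number is fixed by that choice; over all 74 members 52.7% passed, and over all genes 47.3%. The adjusted p was 2.78e-07 for Mrpl38, 3.99e-07 for Mrps18b, 1.83e-06 for Mrpl17, 8.84e-05 for Mrps24, 0.000142 for Mrpl9 and 0.000349 for Mrps7. It was 0.00259 for Mrpl45, 0.00385 for Mrps28, 0.00407 for Mrpl19, 0.00504 for Mrpl20, 0.00594 for Mrpl57, 0.00599 for Mrps9 and 0.00856 for Mrpl52. It was 0.0181 for Mrpl11, 0.0189 for Mrpl34, 0.0233 for Mrps16, 0.0242 for Mrpl35, 0.0248 for Mrpl12 and 0.0475 for Mrpl28.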

How the results depend on the processing

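Counts of called members turned on the scaling. With the values as deposited, the swim count was 0 in kidney, 1 in muscle, 51 in spleen and 2 in visceral fat, where 0.121%, 2.68%, 44.5% and 2.86% of all genes were lower. On that scale the test between tissues passed for 1 member and for 9.96% of all genes, and the counts at rest were 35 in brain, 20 in liver, 37 in subcutaneous fat and 32 in visceral fat. With each array centred on its median, the swim count was 14 in spleen and 49 in visceral fat, where 7.68% and 34.5% of all genes were lower. With array weights it was 37 in brain, where 11.6% of all genes were higher and 15.3% lower. It was 22 in muscle (12.1% of all genes higher and 12.2% lower) and 16 in subcutaneous fat (27.6% higher and 21.9% lower). In 1 fit of all 54 arrays it was 4 in kidney, 3 in muscle, 1 in spleen and 34 in subcutaneous fat (31.7% of all genes higher and 23.8% lower), and at rest 41 in kidney. Without a filter on low signal it was 5 in muscle and 3 in spleen, and with each probe set tested on its own, an alternative chosen after seeing the data, 1 in brain. The share of all genes is not given for the other counts of this paragraph, so their shifts cannot be told from a shift in calls over all genes. The cause was not tested.

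The median difference at rest relative to all genes kept its direction. With a pseudocount of 64 it was -0.27 in brain, 0.37 in liver and -0.48 in spleen, and with 1 it was -0.65 in spleen. Without a filter it was 0.34 in liver, 0.78 in muscle and 0.45 in visceral fat, and over all 54 arrays -0.41 in brain, 0.45 in liver and 0.85 in muscle.

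Leaving out 1 array at a time, the swim count was 0 to 12 in muscle (0 without swim array 46), 1 to 7 in spleen (1 without control array 25), 0 to 18 in subcutaneous fat (18 without control array 17), 10 to 18 in visceral fat and 10 to 14 in kidney, and 0 in brain and liver throughout. The share of all genes is not given for most of these fits. The liver median at rest was 0.39 to 0.47. Of 535 recomputed values over 32 named pairs of gene and tissue, 433 kept direction and side, 90 lost the call, 11 gained it and 1 reversed, Mrpl38 in muscle, at -0.023 as deposited. No paired analysis was possible because the labels do not say which arrays came from the same mouse. The test between tissues treated all arrays as independent.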
